A study of Mus musculus with 8 samples.

Results

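Chemokines and their receptors were followed in pancreatic islets of wild type mice and of mice carrying a knockout of 1 gene, here called knockout. The family was taken as every probe set annotated to a single gene whose current symbol is a chemokine (Ccl, Cxcl, Cx3cl1, Xcl1, Pf4, Ppbp), a chemokine receptor (Ccr, Cxcr, Cx3cr1, Xcr1) or an atypical chemokine receptor (Ackr). The rule found 49 of the 13660 genes named by a single-gene probe set, of which 30 are ligands and 19 are receptors. They are measured by 60 of 24965 probe sets, 49 of them on the Affymetrix array MG-U74A (44 genes) and 11 on MG-U74B (9 genes). Total RNA of islets was hybridised, with 2 arrays of each genotype on each array type, 8 arrays in all, which the design text calls biological replicates. Age, sex and strain of the mice, whether islets of several mice were pooled, and the cells in which the gene was deleted are not given in the sources used here. A further 4 probe sets on MG-U74A whose annotation joins several genes, family symbols among them, were left out.

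Chemokines are small secreted proteins that guide white blood cells along a concentration gradient, and they are named by the spacing of their first cysteines (CC, CXC, C and CX3C). They act through receptors that couple to inhibitory G proteins, while the atypical receptors bind and clear chemokines without that coupling. Some ligands are made steadily and place lymphocytes in lymphoid tissue, and others are induced by inflammatory signals. In islets, beta cells themselves can make chemokines when exposed to inflammatory cytokines, and resident macrophages and vessel cells are further sources.

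Values are the authors' intensities on a linear scale, in arbitrary units, each array having a trimmed mean of 250.2 (MG-U74A) or 250.1 (MG-U74B), and an array can list a probe set below 0. Changes are knockout minus wild type on the scale of log2(intensity + 25), with their standard error. This scale makes the change of a dim probe set smaller than the ratio of its intensities. A probe set whose 4 arrays averaged under 62.5 was not tested. "Rose" and "fell" are used only of probe sets with an adjusted p under 0.05 in limma's test across the array type. With 2 arrays a genotype, the number of arrays limits the precision.

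On MG-U74A 30 of the 49 family probe sets were tested, and limma called 22 as higher in knockout and 0 as lower, with 8 that did not pass. Of all 7516 probe sets tested on this array type, 23.9% rose and 29.0% fell. None of the 30 tested family probe sets had an unadjusted p under 0.05 in the direction of a fall. On MG-U74B 8 of 11 were tested, 2 rose, 0 fell and 6 did not pass, where 8.59% of the 7861 tested probe sets rose and 8.87% fell. By gene, 21 of the 33 genes with a tested probe set had a probe set that rose, 16 of them ligands and 5 receptors. The filter acts on the mean of the 4 arrays, so 5 of the 22 that rose on MG-U74A (Ccr6, Cxcr4, Ccl11, Cxcl14 and 1 probe set of Cxcl12) were tested only because the knockout arrays were bright. It also left out Ccl28 on MG-U74B, which was above 0 on the wild type arrays and below 0 on the knockout arrays. These counts are therefore given as an account of the members and not as support.

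Without any filter, both knockout arrays lay above both wild type arrays for 36 of the 49 family probe sets on MG-U74A, below them for 1 (Ccr3), and overlapped for 12. Over all 12422 probe sets of that array type other than controls, 33.5% lay above in the same way and 36.1% below. On MG-U74B 7 of 11 lay above, 1 below (Ccl28) and 3 overlapped, beside 28.7% above and 30.0% below over 12411 probe sets. The median log2 change of the family, again without a filter, was 1.05 (MG-U74A) and 0.81 (MG-U74B), and that of all probe sets was 0.00 on both. Of the 22 rises on MG-U74A, 18 passed in all alternatives in which they were tested, and Cxcl14, Cxcr5, Ccl6 and Ccl11 did not. Both rises on MG-U74B were lost without wild type replicate 1 and without wild type replicate 2, where limma called 0 of the 7861 probe sets (1873 and 1817 had an unadjusted p under 0.05). On MG-U74A the number of all probe sets that rose went from 1796 to 1182 without wild type replicate 2, and the number that fell from 2178 to 1108 and 1082 without wild type replicate 1 and replicate 2.

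**Figure D1:**
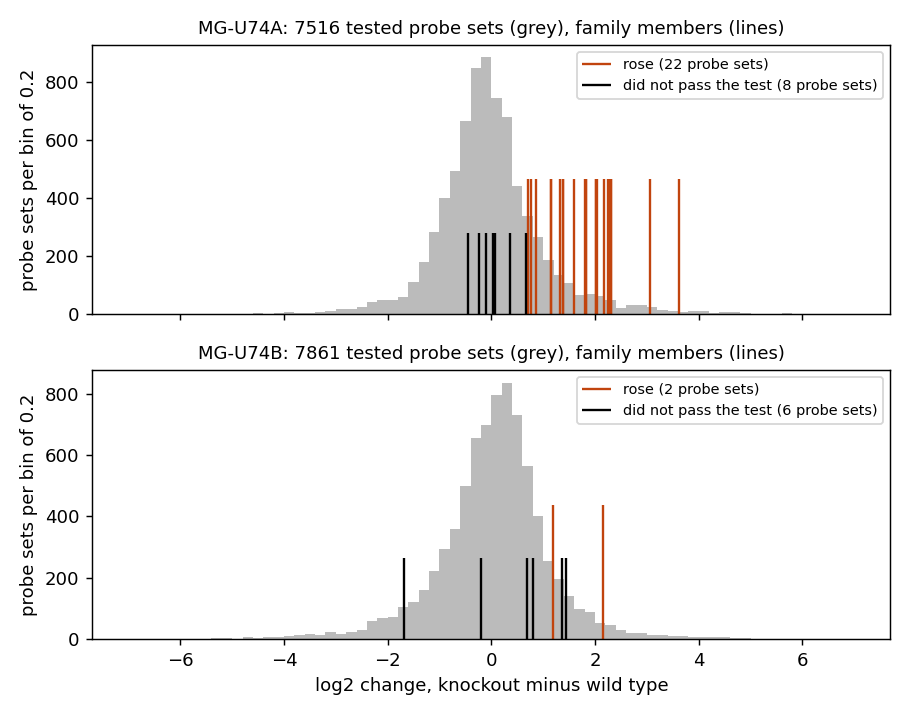
Histograms of the log2 change (knockout minus wild type, horizontal axis) of all tested probe sets in bins of 0.2 (vertical axis, number of probe sets), 7516 on MG-U74A above and 7861 on MG-U74B below, with each tested family probe set as a vertical line whose height has no meaning. The 22 lines of the rises on MG-U74A run from 0.71 to 3.62, and the 8 that did not pass lie between -0.45 and 0.66.

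Other transcripts moved on the same arrays. Marker counts are to be read beside the shares of all tested probe sets on MG-U74A, of which 23.9% rose and 29.0% fell. In bulk islets a difference in the number of cells of a type and a difference in RNA per cell cannot be told apart. On MG-U74A all 9 tested macrophage markers rose, and the summed intensity of that list was 3003 to 3196 on the wild type arrays and 8402 to 8677 on the knockout arrays. Sums here and below take the brightest probe set of each gene, tested or not, and count a value below 0 as 0. B cell markers rose in 3 of 5 cases, with sums of 2046 to 2083 in wild type and 4692 to 4723 in knockout, and Cd79a and Cd22 were listed at or below 0 on both wild type arrays. T cell markers rose in 2 of 5, with sums of 770 to 854 and 1452 to 1571, and Cd3e and Cd5 were listed at or below 0 on all 4 arrays. Dendritic cell markers rose in 4 of 7 (sums of 2964 to 3012 in wild type and 4448 to 4528 in knockout), and neutrophil and platelet markers in 4 of 5 (788 to 847 and 2235 to 2343), with Ngp and Gp1bb at or below 0 on all arrays. Of the markers that rose, Marco, Cd79a, Cd3d, Thy1 and S100a9 had wild type means under the filter. They were tested only because the knockout arrays were bright, so these counts are an account and not support. Both T cell markers that rose, Cd3d and Thy1, are among them.

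Stromal and pancreatic markers went in several directions on MG-U74A, where 23.9% of all tested probe sets rose and 29.0% fell. Of 12 fibroblast and stellate cell markers 9 rose and 1 fell, with sums of 6529 to 6543 in wild type and 19156 to 20292 in knockout, and Acta2 was at or below 0 on both wild type arrays. Endothelial markers rose in 6 of 10 and fell in 1 (sums of 4722 to 4796 and 5344 to 5566), and genes of lymph node vessels and follicles rose in 2 of 7 and fell in 2 (1913 to 2120 and 4304 to 4804). The median log2 change of that last list was -0.14, and Glycam1 alone went from a mean of 64.4 in wild type to 2323 in knockout. Acta2, Icam2 and Tnfsf11, which rose, had wild type means under the filter and were tested only because the knockout arrays were bright. The labelled tissue was present in both genotypes, since the islet endocrine markers summed to 135192 to 135845 in wild type and 85846 to 93978 in knockout, where 9 of 10 fell. Acinar markers fell in 7 of 7 (39216 to 39526 and 4967 to 5562), and duct markers rose in 2 of 8 and fell in 4 (8257 to 8955 and 5727 to 5818). Gapdh has probe sets at both ends of its transcript, and their ratio, 3' over 5', which rises as RNA becomes less complete, was 3.15 and 3.22 on the wild type arrays and 0.949 and 0.937 on the knockout arrays, and on MG-U74B 3.07 and 3.12 against 0.900 and 0.914. The bacterial control BioB, which is added before hybridisation, read 171 and 195 in wild type and 4044 and 3596 in knockout on MG-U74A. The part of these cell types, of RNA quality and of hybridisation in the family's values was not tested.

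Ligands that draw neutrophils through the receptor Cxcr2 rose. Cxcl5 read 697 and 709 on the wild type arrays and 3291 and 3214 on the knockout arrays. The arrays of each genotype lay close together and the genotypes were far apart, a 4.63-fold ratio of means and a log2 change of 2.17 ± 0.04 (adjusted p = 9.39e-05). Cxcl1 was measured by 2 probe sets, of which the brighter read 1142 and 1191 in wild type and 4222 and 4007 in knockout. Its log2 change was 1.80 ± 0.05 (adjusted p = 1.38e-04), and the other probe set, at 715 and 677 in wild type and 2657 and 2424 in knockout, gave 1.83 ± 0.06 (adjusted p = 2.46e-04). The probe sets of Cxcl1 thus gave changes within their standard errors of each other. Cxcl2 was dimmer, at 64.1 and 68.6 in wild type and 223 and 203 in knockout, and rose by 1.38 ± 0.14 (adjusted p = 0.00276). All 3 genes showed no overlap between genotypes and passed in every alternative.

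The platelet members of the same group did not pass or were too dim to test. Ppbp, a chemokine precursor stored in platelets, was measured on MG-U74B at 189.6 and 123 in wild type and 57.4 and 270.3 in knockout. Its genotypes overlapped and its knockout arrays lay far apart, with a change of -0.19 ± 0.70 (adjusted p = 0.867). Pf4, stored in platelets as well, was listed at -34.5 and -50.1 in wild type and 23.3 and -11.4 in knockout and was not tested. The receptor gene Cxcr2 was also too dim to test, at 13.2 and 3.20 in wild type and 21.8 and 43.1 in knockout, with the knockout arrays above the wild type arrays.

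Promoters of 4 CXC ligand genes that rose are shown, those of the neighbours Cxcl1 and Cxcl2 and of the separate pair Cxcl9 and Cxcl10. They were chosen because all 4 rose and 3 of them share a short match. The promoter of Cxcl5, which lies in the run of Cxcl1 and Cxcl2 and also rose, is not shown. The sequences are the 250 bases before the annotated start in RefSeq's GRCm38.p6, on the gene's own strand, and all lie on chromosome 5. Cxcl1 lies at chr5:90890995-90891244 and Cxcl2 at chr5:90903649-90903898, both on the plus strand. Cxcl10 lies at chr5:92348890-92349139 and Cxcl9 at chr5:92328080-92328329, both on the minus strand. Capitals mark GGAATTTCC, a form of the site bound by NF-kB, on either strand, and TTTCNNTTTC, a form of the interferon-stimulated response element, on either strand. These do not overlap each other in the windows shown.
Cxcl1: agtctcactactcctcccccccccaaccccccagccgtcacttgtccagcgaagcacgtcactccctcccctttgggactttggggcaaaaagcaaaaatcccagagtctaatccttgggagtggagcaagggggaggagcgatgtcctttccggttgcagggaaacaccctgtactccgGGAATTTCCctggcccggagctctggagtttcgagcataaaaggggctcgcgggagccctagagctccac
Cxcl2: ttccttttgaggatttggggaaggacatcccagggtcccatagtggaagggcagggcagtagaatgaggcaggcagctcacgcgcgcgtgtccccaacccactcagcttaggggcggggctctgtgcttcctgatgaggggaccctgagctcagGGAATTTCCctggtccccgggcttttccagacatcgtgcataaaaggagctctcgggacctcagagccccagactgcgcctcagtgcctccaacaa
Cxcl10: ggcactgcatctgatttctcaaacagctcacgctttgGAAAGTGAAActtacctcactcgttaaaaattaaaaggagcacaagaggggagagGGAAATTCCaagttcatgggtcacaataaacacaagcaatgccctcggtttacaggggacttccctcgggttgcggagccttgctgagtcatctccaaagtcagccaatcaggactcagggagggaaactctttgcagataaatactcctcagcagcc
Cxcl9: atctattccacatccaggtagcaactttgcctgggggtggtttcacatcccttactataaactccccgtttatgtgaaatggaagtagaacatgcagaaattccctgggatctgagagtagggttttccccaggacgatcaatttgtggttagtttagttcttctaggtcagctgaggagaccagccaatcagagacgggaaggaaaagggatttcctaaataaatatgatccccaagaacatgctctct

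The match to GGAATTTCC begins 70 bases before the start of Cxcl1, 96 bases before that of Cxcl2 and, on the other strand, 158 bases before that of Cxcl10. It occurs in 104 (0.317%) of the 32851 RefSeq windows of 300 bases around gene starts, and in 4 of the 40 windows of the 38 family genes that had one. The fourth was Ccr3, which was not tested. TTTCNNTTTC occurs in 1131 windows (3.44%) and in 2 of the family's, those of Cxcl10, 213 bases before its start, and Cxcl14. Cxcl9, with the largest log2 change of the tested members, held neither in its window, which says only that these letters are not there. The last motif searched, TATAAA, the letters of a TATA box, was in 13 of the 40 windows and in 13.6% of all. It was counted on either strand and at any place, and the family's matches began from 224 (Ccl9) to 6 (Cx3cl1) bases before the start. A match is therefore not shown to be a working TATA box. The motifs were picked after the windows had been read, so these matches are a description.

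Cxcl9 and Cxcl10, which are induced by interferon and attract activated T cells through Cxcr3, rose. Cxcl9 read 309.5 and 363 in wild type and 4396 and 4419 in knockout. This was the largest rise of the family, 13.1-fold by the ratio of means and 3.62 ± 0.08 on the log2 scale (adjusted p = 1.16e-04), and 59 of the 7516 tested probe sets had a larger log2 change. Cxcl10 read 206 and 216 in wild type and 1084 and 1216 in knockout, a change of 2.31 ± 0.08 (adjusted p = 2.47e-04). The receptor Cxcr3 was measured at 201 and 242 in wild type and 195 and 210.2 in knockout. Its genotypes overlapped, and its change of -0.11 ± 0.13 did not pass (adjusted p = 0.521).

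Cxcl12, a steadily made ligand of stromal cells that retains blood-forming cells and lymphocytes, had 4 tested probe sets. The 3 on MG-U74A read 137 and 134 in wild type and 642 and 602 in knockout, 117 and 109 against 649 and 614, and 38.2 and 34.9 against 266 and 297. None of them overlapped between genotypes, and the log2 changes of 2.01 ± 0.08, 2.25 ± 0.09 and 2.31 ± 0.15 all passed (adjusted p = 3.18e-04, 3.01e-04 and 8.49e-04). On MG-U74B its probe set read 298 and 406 in wild type and 582 and 565 in knockout. That one also showed no overlap, but its change of 0.68 ± 0.21 was smaller and did not pass (adjusted p = 0.0925). The signalling receptor Cxcr4 read 66.0 and 49.8 in wild type and 359 and 262 in knockout and rose by 2.01 ± 0.21 (adjusted p = 0.00311). Ackr3, which clears Cxcl12, was below the filter at 32.7 and 9.0 in wild type and 124 and 79.6 in knockout, again with no overlap.

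Cxcl13, which places B cells in follicles, was listed at -37.3 and -40.8 in wild type and 112 and 118 in knockout. Its mean lay under the filter, and without a filter it passed (adjusted p = 0.00374), with no ratio because wild type was below 0. Both wild type values were set to 0 before that test and so show no spread in it, which lowers the p. Its receptor Cxcr5 read 82.0 and 60.7 in wild type and 146 and 119 in knockout and rose by 0.71 ± 0.21 (adjusted p = 0.0473). This was the weakest call of the family, and it held in 4 of 11 alternatives (adjusted p between 0.0382 and 0.203). Cxcl14, a ligand of epithelial and stromal tissue, read 63.7 and 53.3 in wild type and 109 and 146 in knockout and rose by 0.86 ± 0.21 (adjusted p = 0.0302), a call that held in 6 of 11 alternatives and ended with no filter (0.0859), without wild type replicate 1 (0.10), without wild type replicate 2 (0.142) and without knockout replicate 2 (0.0560). The mucosal ligand Cxcl17 on MG-U74B read 169 and 417 in wild type and 304 and -192 in knockout, which overlapped widely, and its change of -1.69 ± 1.3 did not pass (adjusted p = 0.400).

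**Figure D2:**
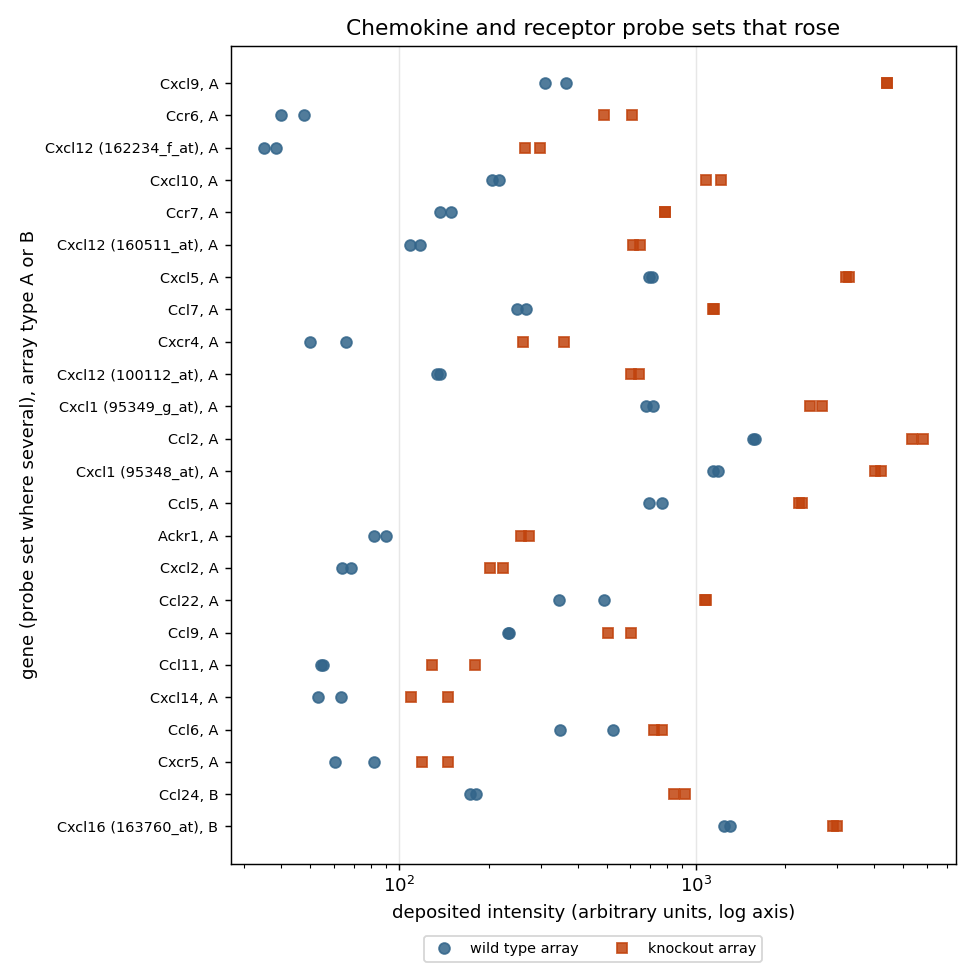
Deposited intensity (horizontal log axis, arbitrary units) of the 24 family probe sets that rose, in order of their log2 change within array type A (MG-U74A) and B (MG-U74B), with a circle for each wild type array and a square for each knockout array, 2 of each. In every line both squares lie to the right of both circles, and the gap is widest for Cxcl9, from 310 and 363 to 4396 and 4419. Levels of different probe sets are not comparable.

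The ligands anchored in the membrane, Cxcl16 and Cx3cl1, and the C chemokine Xcl1 gave mixed results. Cxcl16, which is also a scavenger receptor and whose shed form attracts T cells, was measured on MG-U74B at 1302 and 1243 in wild type and 2980.1 and 2907 in knockout. It rose by 1.19 ± 0.10 (adjusted p = 0.00658), lost without wild type replicate 1 (0.0999) or without wild type replicate 2 (0.105), and its other probe set was dim, at -33.8 and 16.7 in wild type and -25.8 and -15.2 in knockout, and not tested. Cx3cl1, the ligand of vessel and nerve cells known as fractalkine, was measured on MG-U74A at 155 and 148 in wild type and 166 and 242 in knockout. Its change of 0.36 ± 0.20 there and of 0.81 ± 0.53 on MG-U74B did not pass (adjusted p = 0.205 and 0.334), although on both array types the knockout arrays lay above the wild type arrays. The remaining probe set of Cx3cl1 was below 0 on all 4 arrays. Xcl1, the C chemokine of activated T cells and natural killer cells, was listed at -33.6 and -38.9 in wild type and 92.8 and 89.4 in knockout. It was not tested for its low mean and passed without a filter (adjusted p = 0.00331). There too both wild type values were set to 0 before the test and so show no spread in it.

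CC ligands that recruit monocytes rose in part. Ccl2, the main monocyte attractant, read 1554 and 1582 in wild type and 5811 and 5373 in knockout. The genotypes were well apart, 3.57-fold by the ratio of means, with a log2 change of 1.82 ± 0.05 (adjusted p = 1.69e-04). Ccl7, another ligand of Ccr2, read 268 and 249 in wild type and 1148 and 1138 in knockout and rose by 2.04 ± 0.06 (adjusted p = 1.91e-04). Ccl12, also a Ccr2 ligand in mice, was not tested, at -144 and -24.4 in wild type and 153 and 59.4 in knockout. Ccl8 differed from these: at 208 and 199.5 in wild type and 188 and 252 in knockout its genotypes overlapped, and its change of 0.08 ± 0.16 did not pass (adjusted p = 0.694). The receptor Ccr2 was too dim to test, at 19.3 and 12.7 in wild type and 80.2 and 49.2 in knockout, with no overlap.

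Ccl11 and Ccl24, the eotaxins that recruit eosinophils through Ccr3, rose. Ccl24 on MG-U74B read 182 and 173 in wild type and 921 and 841 in knockout, a 4.97-fold ratio and a log2 change of 2.16 ± 0.18 (adjusted p = 0.00699). The call was lost without wild type replicate 1 (0.0999), without wild type replicate 2 (0.104) and without knockout replicate 1 (0.0529). Ccl11 read 54.3 and 55.4 in wild type and 129 and 179.5 in knockout and rose by 1.15 ± 0.21 (adjusted p = 0.0135), a call that ended with no filter (0.0521), without wild type replicate 1 (0.0715) and without wild type replicate 2 (0.0698). Ccr3 was dim, at 33.9 and 50.6 in wild type and 26.2 and 10.9 in knockout, and was the only family probe set on MG-U74A with both knockout arrays below both wild type arrays.

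Of the other inflammatory CC ligands, Ccl5, a product of T cells and other activated cells, read 768 and 692 in wild type and 2279.8 and 2227 in knockout and rose by 1.60 ± 0.06 (adjusted p = 3.12e-04). Ccl9 and Ccl6, myeloid ligands of Ccr1, rose by less. Ccl9 read 233 and 235 in wild type and 605 and 505 in knockout, a change of 1.16 ± 0.11 (adjusted p = 0.00226). Ccl6 read 526 and 348 in wild type and 721 and 770.0 in knockout, and the distance between its wild type arrays was large beside its change of 0.76 ± 0.21 (adjusted p = 0.0390), which was lost with no filter (0.138), with no variance trend (0.0639), without knockout replicate 1 (0.138) and without knockout replicate 2 (0.166). Ccl3, a macrophage inflammatory protein, read 66.1 and 83.1 in wild type and 147 and 117 in knockout with no overlap, and its change of 0.66 ± 0.20 just missed the threshold (adjusted p = 0.0513, and 0.0385 to 0.218 over its alternatives). Ccl4, at -192 and -165 in wild type and -22.5 and 59.0 in knockout, and Ccl1, whose positive probe set read 29.5 and 30.9 in wild type and 109.9 and 64.9 in knockout, were not tested. A second probe set of Ccl1 was below 0 on all 4 arrays.

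Among ligands of T cell subsets and mucosal tissue, Ccl22, a dendritic cell product that acts through Ccr4, read 346 and 490.4 in wild type and 1072 and 1083 in knockout and rose by 1.33 ± 0.17 (adjusted p = 0.00525). The other ligand of that receptor, Ccl17, and Ccr4 itself were listed below 0 on all 4 arrays. Ccl25, the gut and thymus ligand of Ccr9, was listed at -31.9 and -28.3 in wild type and 14.6 and -15.3 in knockout. Ccl28, a mucosal ligand on MG-U74B, stood out by its direction, with 132 and 206 in wild type and -232 and -84.2 in knockout. Its mean lay under the filter because the knockout values were below 0. Without a filter its log2 change was -2.93 ± 0.33 and did not pass (adjusted p = 0.0552). Both knockout values were set to 0 before that test and so show no spread in it.

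Of the 12 receptor genes with a tested probe set 5 rose, beside 16 of 21 ligand genes, a difference that was not tested. A further 7 receptor genes and 9 ligand genes were too dim to test. Over all tested probe sets 23.9% rose on MG-U74A and 8.59% on MG-U74B. Of the receptors that rose, Ccr6 and Cxcr4 were tested only because the knockout arrays were bright. Ccr6, the receptor for Ccl20 on B cells and some T cells, had the largest change among the tested receptors. It read 47.7 and 39.8 in wild type and 609 and 489 in knockout, a 12.5-fold ratio and 3.06 ± 0.16 on the log2 scale (adjusted p = 5.23e-04). Ccr7, which brings lymphocytes and dendritic cells into lymph nodes, read 137 and 149 in wild type and 784 and 787 in knockout and rose by 2.27 ± 0.08 (adjusted p = 2.37e-04). For Ccr6 and Ccr7 both genotypes were far apart beside the distance between their arrays. The B cell and T cell marker sums given above were also higher on these knockout arrays. Of the tested markers on MG-U74A, 2 of 5 for B cells and 3 of 5 for T cells did not pass. One of these, the B cell marker Ms4a1, had a probe set on MG-U74B that rose (1.33 ± 0.27, adjusted p = 0.0360), a call lost with no filter. The T cell marker Cd3e on MG-U74B gave 0.16 ± 0.77 and did not pass (adjusted p = 0.903). Cd79a, Cd3d and Thy1 were tested only because the knockout arrays were bright. A link between these markers and the receptors was not tested.

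Ccr1, a receptor of myeloid cells, had 3 probe sets, at 28.2 and 12.5 against 67.6 and 67.9 on MG-U74A, and on MG-U74B at 13.7 and 56.5 against 142 and 100.2 for the tested one and 27.7 and 11.3 against 62.6 and 71.1 for the other, wild type first. In all of them the knockout arrays lay above the wild type arrays, and the single tested probe set, with a change of 1.37 ± 0.59, did not pass (adjusted p = 0.179). Ccr9, the gut homing receptor, differed between its probe sets. On MG-U74B it read 44.6 and 40.3 in wild type and 171 and 147 in knockout, a change of 1.44 ± 0.42 that did not pass (adjusted p = 0.0799), and on MG-U74A 30.3 and 13.3 in wild type and 7.0 and 25.8 in knockout, which overlapped. Ccr8 and Ccr1l1, a relative of Ccr1, were below 0 on all arrays of MG-U74A.

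Cx3cr1 and Xcr1 did not pass. Cx3cr1, a receptor of monocytes and tissue macrophages, read 344 and 229 in wild type and 305 and 283 in knockout and had a change of 0.06 ± 0.21 (adjusted p = 0.833). Its genotypes overlapped, while the 9 tested macrophage markers rose. Xcr1, the Xcl1 receptor of a dendritic cell subset, read 170.5 and 145 in wild type and 69.1 and 165 in knockout. Knockout replicate 1 was the low array, and the change of -0.45 ± 0.38 did not pass (adjusted p = 0.378), while without knockout replicate 2 it became -0.95 and passed (adjusted p = 0.0326).

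Of the atypical receptors, Ackr1, the Duffy antigen of small veins and red cells, read 81.9 and 89.8 in wild type and 274 and 257 in knockout and rose by 1.39 ± 0.12 (adjusted p = 0.00187). Ackr2, which clears inflammatory CC ligands, read 95.9 and 84.8 in wild type and 90.1 and 96.6 in knockout, and Ackr4, which clears lymph node ligands, read 197 and 243 in wild type and 125 and 257 in knockout. Both overlapped between genotypes, with changes of 0.04 ± 0.16 and -0.24 ± 0.35 that did not pass (adjusted p = 0.861 and 0.588).

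**Figure D3:**
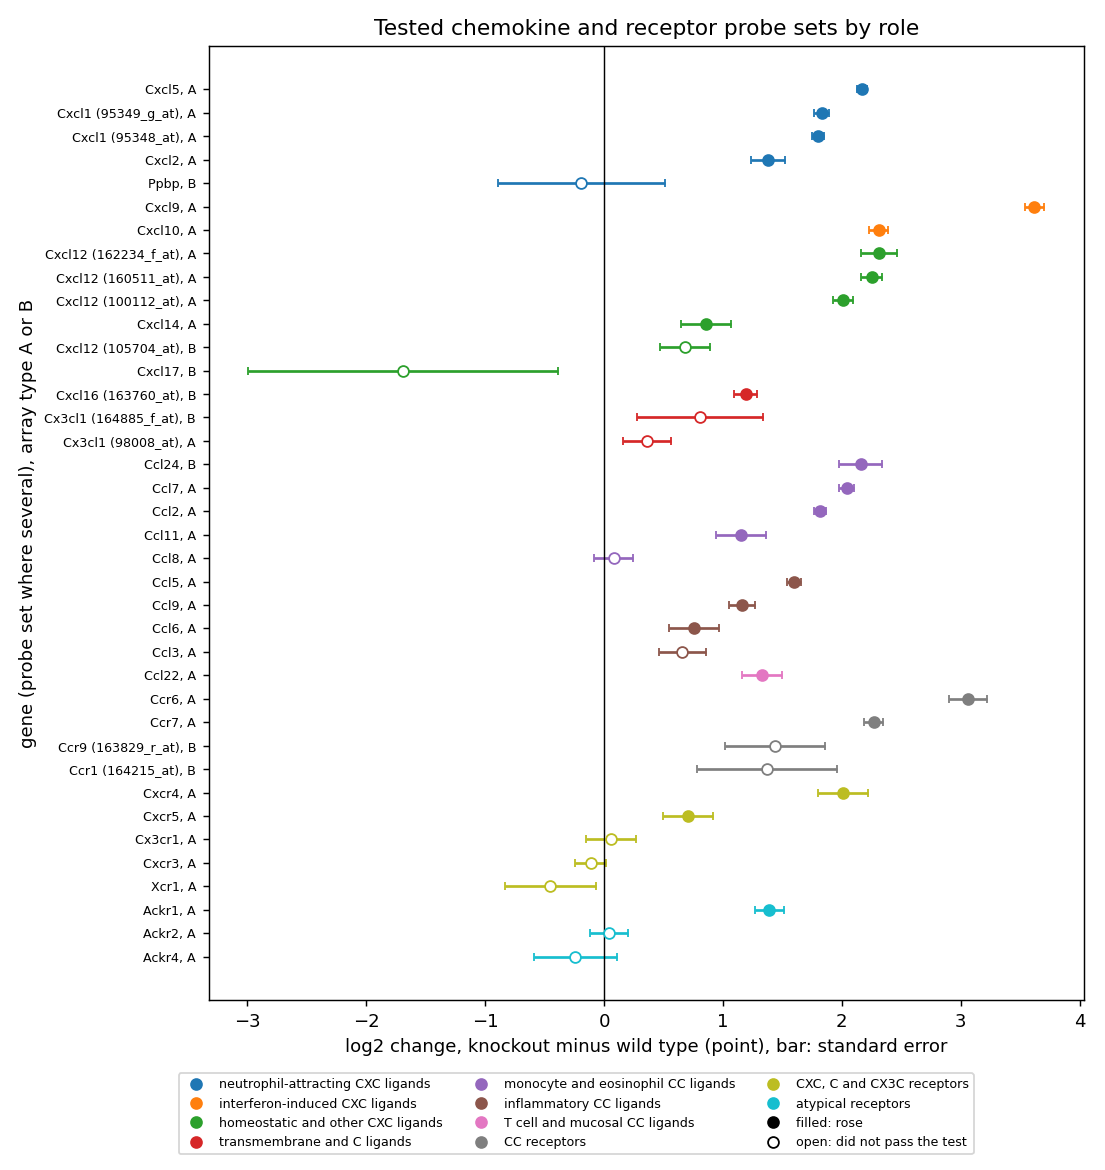
Log2 change (knockout minus wild type, horizontal axis) with its standard error for the 38 tested family probe sets on MG-U74A (A) and MG-U74B (B), coloured by role, filled where the probe set rose and open where it did not pass. The filled points lie between 0.71 (Cxcr5) and 3.62 (Cxcl9), and the widest error bars are those of Cxcl17 and Ppbp on MG-U74B.

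Many family genes lie beside each other, which the choice of members did not use. In the order of protein-coding genes in GRCm38.p6, a chromosome 11 run of 6 holds Ccl2, Ccl7, Ccl11, Ccl12, Ccl8 and Ccl1, and the first 3 of these rose, Ccl8 did not pass, and Ccl12 and Ccl1 were not tested. The second run on that chromosome holds Ccl5, Ccl9, Ccl6, Ccl3 and Ccl4, of which the first 3 rose, Ccl3 did not pass and Ccl4 was not tested. On chromosome 5, Cxcl5 begins a run of 7 that ends in Cxcl1 and Cxcl2. These 3 rose, and the platelet genes Ppbp and Pf4 between them did not pass or were not tested. Cxcl9 and Cxcl10, a separate pair on chromosome 5, both rose. Ccl22 rose on chromosome 8, where its neighbours Cx3cl1 and Ccl17 did not pass or were not tested, and in the receptor run on chromosome 9 Ccr9, Xcr1 and Ccr1 did not pass and Ccr1l1, Ccr3 and Ccr2 were not tested. Members of a run therefore did not all get the same call, and a member that was not tested or did not pass is not shown to differ. Of the ligands here without a call, Ccl12, Ccl1, Ccl3, Ccl4, Pf4 and Cx3cl1 had both knockout arrays above both wild type arrays, by their brightest probe set. The genotypes overlapped for Ccl8, Ppbp and Ccl17. Probe sets of closely related members may pick up each other's transcripts, which was not tested.

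**Figure D4:**
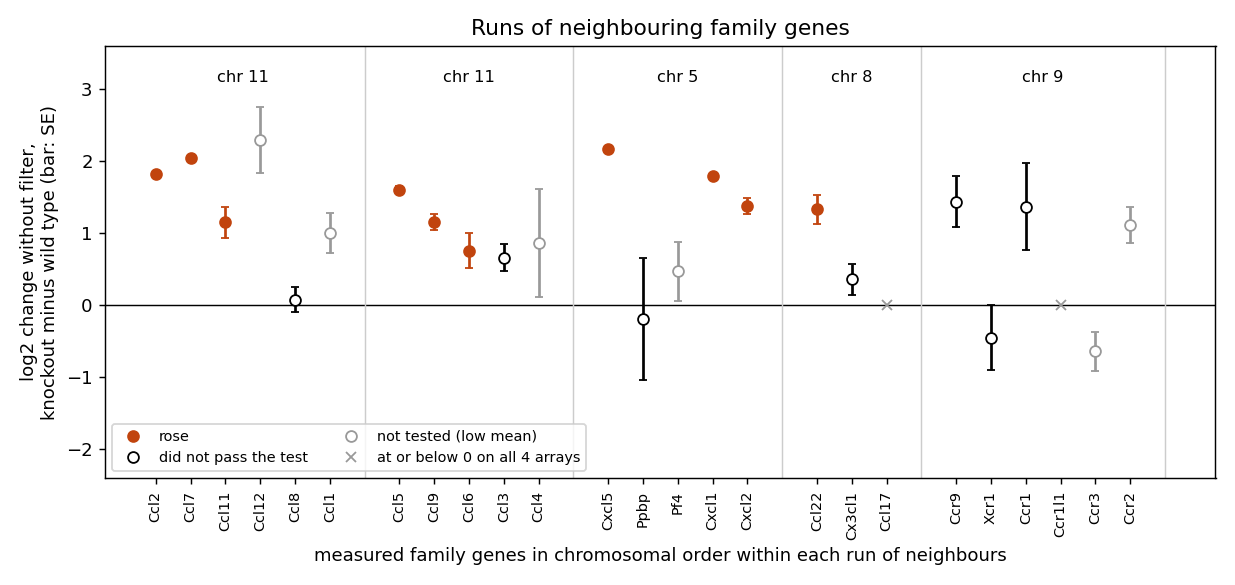
Log2 change without a filter on low values (knockout minus wild type, vertical axis, bar for the standard error) of the measured genes in the 5 runs with 3 or more measured family genes, in chromosomal order from left to right, by the brightest probe set of each gene. Filled points rose in the filtered test, open black points did not pass, grey points were not tested and crosses were listed at or below 0 on all 4 arrays. Within each of the 3 runs of ligands on chromosomes 11 and 5, filled points stand beside open ones.

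Genes that act upstream of chemokines were taken from a list of cytokines, their receptors and NF-kB and interferon factors. On MG-U74A 12 of its 20 tested genes rose, 3 fell and 5 did not pass, with a median log2 change of 0.83 beside -0.09 for all tested probe sets. Of all those probe sets 23.9% rose and 29.0% fell. Among those that passed, the largest changes were in the cytokine genes Il1b (2.08 ± 0.24, from 32.2 ± 3.32 to 220 ± 59.0, SD, n = 2), lymphotoxin beta, Ltb (2.04 ± 0.15, from 297 ± 12.4 to 1309 ± 256), and the transcription factor gene Stat6 (1.74 ± 0.12, from 90.9 ± 6.86 to 362 ± 22.8). Their adjusted p were 0.00367, 0.00112 and 9.51e-04. Il1b and Ifngr2, which also rose, had wild type means of 32.2 and 48.5, under the filter. Both were tested only because the knockout arrays were bright. Counts of this list and of the lists below are given as an account and not as support. Tnf was listed at or below 0 on both wild type arrays.

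For G proteins, kinases of the receptor, arrestins and their regulators, 3 of 13 tested genes rose, 6 fell and 4 did not pass on MG-U74A, with a median of -0.36, where 23.9% of all tested probe sets rose and 29.0% fell. The largest changes were those of the inhibitory G protein gene Gnai1 (-2.24 ± 0.32, adjusted p = 0.00709), the adenylyl cyclase gene Adcy7 (1.90 ± 0.38, adjusted p = 0.0176) and the G protein gamma gene Gng2 (1.01 ± 0.20, adjusted p = 0.0170). Adcy7 and Gng2 had wild type means of 20.6 and 51.7, under the filter, and were tested only because the knockout arrays were bright. A Gnai1 probe set on MG-U74B had the opposite sign and a wide error, at 1.38 ± 0.61, and did not pass (adjusted p = 0.182). Gng2 on MG-U74B gave 0.13 ± 0.41 and did not pass (adjusted p = 0.850). For kinases and cell movement 9 of 22 rose, 2 fell and 11 did not pass, with a median of 0.22. The largest changes were those of Dock2, which activates Rac, at 2.10 ± 0.18 (adjusted p = 0.00183), the actin-binding Coro1a at 1.92 ± 0.06 (adjusted p = 2.26e-04), and the GTPase genes Rac2 at 1.36 ± 0.09 and Rhoh at 1.36 ± 0.11 (adjusted p = 8.17e-04 and 0.00156). Dock2, with a wild type mean of 26.3, was likewise tested only because the knockout arrays were bright. Those that fell were Prkcb, at -1.24 ± 0.06 (adjusted p = 4.21e-04), and Akt1, at -0.23 ± 0.06 (adjusted p = 0.0325). On MG-U74B a Prkcb probe set gave 0.37 ± 0.35 and did not pass (adjusted p = 0.489). A Rhoh probe set on MG-U74B also had the opposite sign, at -1.09 ± 0.45, and did not pass (adjusted p = 0.166). Rac2 was listed at or below 0 on all arrays of MG-U74B.

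Of relatives outside the family rule, which include other attractants and receptors, 5 of 9 tested genes rose, 0 fell and 4 did not pass on MG-U74A, with a median of 0.66. The shares over all tested probe sets there were 23.9% and 29.0%. Rarres2, the attractant chemerin, had the largest change at 3.83 ± 0.21, from 148 ± 49.6 to 2376 ± 91.3 (SD, n = 2, adjusted p = 6.10e-04), larger than that of any tested chemokine. Cmtm3 (1.01 ± 0.15, adjusted p = 0.00717) and the cytokine gene Il16 (0.82 ± 0.13, adjusted p = 0.00905) followed. The chemerin receptor gene Cmklr1 was listed at or below 0 on both wild type arrays. Over all 4 of these lists on MG-U74A the number that fell went from 11 to 5 without wild type replicate 1 and without wild type replicate 2. Of all probe sets tested on MG-U74B 8.59% rose and 8.87% fell. There 2 of the 17 tested genes of these lists rose and 0 fell, the adaptor gene Pik3r5 (1.82 ± 0.35, adjusted p = 0.0316) and the interferon receptor gene Ifngr2 (0.79 ± 0.11, adjusted p = 0.0148). Pik3r5, with a wild type mean of 58.5, was tested only because the knockout arrays were bright. Both calls were lost with no filter and with any 1 array left out.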

How the data were processed

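Islet RNA of 2 genotypes was measured on MG-U74A and MG-U74B arrays, 2 arrays per genotype and type, grouped by sample title. The deposited values are linear intensities; per the values, the authors scaled each array to 1 trimmed mean, leaving out 2% at each end, and between 18.4% and 26.7% of an array's values are below 0. Their software was not given in the sources used here. Each array was rescaled to the common trimmed mean (a change under 0.01%), floored at 0, and log2 was taken after adding 25, 10% of that mean. Probe sets with a mean under 62.5 (25%) and 66 controls were left out. Array types were fitted separately with lmFit and eBayes, with a variance trend, in limma 3.58.1 (R 4.3.3), two-sided, with Benjamini-Hochberg adjustment over all tested probe sets. The procedure was also run on simulated data in which few probe sets, none of them dim, were changed. That run does not cover dim members or changes as widespread as those here. An exact permutation test of 2 against 2 cannot go below 0.333. P-values measure only how far these arrays spread, and part of that may be technical. Names were brought up to date through the GRCm38.p6 RefSeq table, which matched all 60 members by gene ID. Same-numbered arrays did not deviate together (correlations of 0.02 and 0.03), so no pairing was used. Members and lists were chosen with earlier results of these data known. The rule for names took every member past the threshold or with a mean at or above the trimmed mean, and the 3 largest called changes of each pathway list, by the gene's brightest probe set. Alternatives were other constants (5% and 20%), a generalised log, no filter or a filter at 50%, quantile normalization, no trend, a replicate block and leaving out each array. The targeted gene is not reported here.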

Additional observations from a re-analysis of the deposited data

How the results depend on the processing

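No called change turned its sign in any alternative. On MG-U74A the number of family probe sets that rose was between 19 and 23 over the 12 alternatives, against 22. Of the 448 values of tested family probe sets under the alternatives, 409 kept their direction and side of the threshold, 24 lost the call, 5 gained it and 10 changed sign with no call before or after. All 10 came from leaving out 1 array, over which the log2 change ran from -0.11 to 0.27 for Ccl8, -0.70 to 0.21 for Ackr4, -0.23 to 0.01 for Cxcr3, -0.21 to 0.33 for Cx3cr1, -0.95 to 0.06 for Xcr1, -0.03 to 0.11 for Ackr2, -1.11 to 0.73 for Ppbp and -3.55 to 0.16 for Cxcl17. Leaving out 1 array at a time, where the lone array of a genotype is assumed to vary like the other pair, gave 1182 to 1729 rises and 1082 to 2401 falls over all probe sets of MG-U74A, and 0 to 1 falls in the family, the 1 being Xcr1 without knockout replicate 2. On MG-U74B it gave 0 to 139 rises and 0 to 399 falls over all, and 0 to 2 rises in the family. With wild type replicate 1 or replicate 2 left out, limma called none on MG-U74B, beside 1873 and 1817 probe sets with an unadjusted p under 0.05, of which 3 and 4 were family rises. Counts of all probe sets on MG-U74B also moved with no filter, to 332 rises and 432 falls, and with no variance trend, to 295 and 343, for which the cause was not tested. The replicate block, for numbers that do not pair the arrays, gave 1646 rises and 1982 falls on MG-U74A with 20 family rises, Cxcl14 (adjusted p = 0.0622) and Cxcr5 (0.0561) being lost, and 587 and 620 on MG-U74B with 2. Low signal limits the 22 family probe sets below the filter.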
